A study of Caenorhabditis elegans with 2 samples.

Results

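The genes mdt-26, rpac-19, rpb-11 and taf-9, which encode parts of the transcription machinery, carried peaks in a chromatin immunoprecipitation sequencing (ChIP-seq) experiment on the protein of gene F10E7.11. The genes were selected on the measured peak lists themselves. Each holds the summit of at least 1 peak past the irreproducible discovery rate (IDR) threshold, within the gene or up to 1000 bp upstream. They are 4 of 19985 protein-coding genes in the annotation, and they hold 5 of the 575 summits in the IDR list. By name, mdt-26 is a Mediator subunit gene, rpac-19 and rpb-11 are RNA polymerase subunit genes, and taf-9 belongs to the general factor TFIID rather than to either of those complexes.

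The experiment used whole Caenorhabditis elegans of strain OP658, whose genotype is unc-119(tm4063) III; wgIs658, so that all material carried both the unc-119 allele and the insertion. The insertion expresses F10E7.11 with a GFP-FLAG tag at its C terminus. The promoter that drives it is not given in the sources used here. Mixed-sex young adults were collected 63 hours after synchronisation as starved L1 larvae following bleaching, and chromatin was sheared by sonication. The description names an anti-GFP antibody, while the antibody label names F10E7.11 itself. There was 1 group of 2 biological replicates and no second condition, so the question the data address is where the tagged protein was detected. In whole animals, weak binding in many cells and strong binding in few cells cannot be told apart.

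In assembly ce11, 4 lists were used, namely the candidate regions of each replicate, those of the pooled replicates, and the pooled peaks past the irreproducible discovery rate (IDR) threshold. They hold 18116 regions for replicate 1, 25275 for replicate 2, 18286 for the pooled data and 575 for the IDR list. Candidate lists include background by design, and 996 pooled regions have a q-value under 0.05. Each region has a summit, a q-value and a signal value. The scale of the signal value is not defined in the sources used, and its median differed between the lists. For this reason every signal value below is set beside its rank, where rank 1 is the strongest, or divided by the median of its own list. Those medians were 71.9 for the pooled list, 52.9 for replicate 1 and 23.7 for replicate 2. The number of reads behind a value is unknown from these files.

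Transcription of protein-coding genes by RNA polymerase II requires the general factors, which assemble at the core promoter, and Mediator, a large complex that carries signals from DNA-bound factors to the polymerase. TFIID is the general factor that recognises the core promoter, through the TATA-binding protein and its associated TAF proteins. The nuclear RNA polymerases share a core plan. In yeast, the pair AC40 and AC19 holds the place in polymerases I and III that RPB3 and RPB11 hold in polymerase II, and rpac-19 and rpb-11 are the worm genes named after AC19 and RPB11. The mammalian MED26 protein connects Mediator with TFIID and with elongation factors, and mammalian TAF9 pairs with TAF6 through a histone fold in TFIID.

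The reference sequences under the summits are shown first, read from assembly WBcel235 (ce11) 5′ to 3′ on the coding strand of each gene. They are shown because the strongest peak of the pooled ce11 list lies in the first and the other 3 allow the promoter-proximal summits to be read against it. The mdt-26 stretch is chrII:5661726-5662025 on the plus strand and spans both of its summits. The others are the 100 bases around each summit, at chrIII:9629958-9630057 on the minus strand for rpac-19, chrII:14059899-14059998 on the plus strand for rpb-11 and chrIII:13624310-13624409 on the plus strand for taf-9. Capitals mark the word ACGCAG or its complement CTGCGT, a word known from earlier results to be frequent at these peaks. In mdt-26 the capitals also cover GTTCGANNC on the opposite strand, which overlaps the first word by 2 bases.
mdt-26: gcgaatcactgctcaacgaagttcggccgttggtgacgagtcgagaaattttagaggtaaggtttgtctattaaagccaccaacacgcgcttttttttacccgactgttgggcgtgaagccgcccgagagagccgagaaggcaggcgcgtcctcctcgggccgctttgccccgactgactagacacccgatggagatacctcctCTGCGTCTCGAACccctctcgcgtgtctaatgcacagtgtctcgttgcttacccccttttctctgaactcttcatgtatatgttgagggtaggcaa
rpac-19: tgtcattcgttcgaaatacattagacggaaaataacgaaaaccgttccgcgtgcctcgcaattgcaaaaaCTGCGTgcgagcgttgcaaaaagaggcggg
rpb-11: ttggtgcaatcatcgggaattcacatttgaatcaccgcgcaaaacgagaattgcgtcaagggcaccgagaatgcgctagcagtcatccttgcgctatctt
taf-9: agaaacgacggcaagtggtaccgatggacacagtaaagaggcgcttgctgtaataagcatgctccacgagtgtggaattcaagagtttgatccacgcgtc

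All 4 genes were inside the IDR list because the members were chosen by it; across the annotation, 2.4% of protein-coding genes, 479 of 19985, met the same rule. Within the IDR list the members are spread from its top to its weaker end. The strongest mdt-26 summit had pooled rank 1, rpac-19 rank 66, the weaker mdt-26 summit rank 82, rpb-11 rank 342 and taf-9 rank 471. The list ends at rank 575, with a signal value of 154.967 for the last peak inside and 154.958 for the first region outside. The taf-9 value of 164.739 is the closest of the members to that edge.

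**Figure D1:**
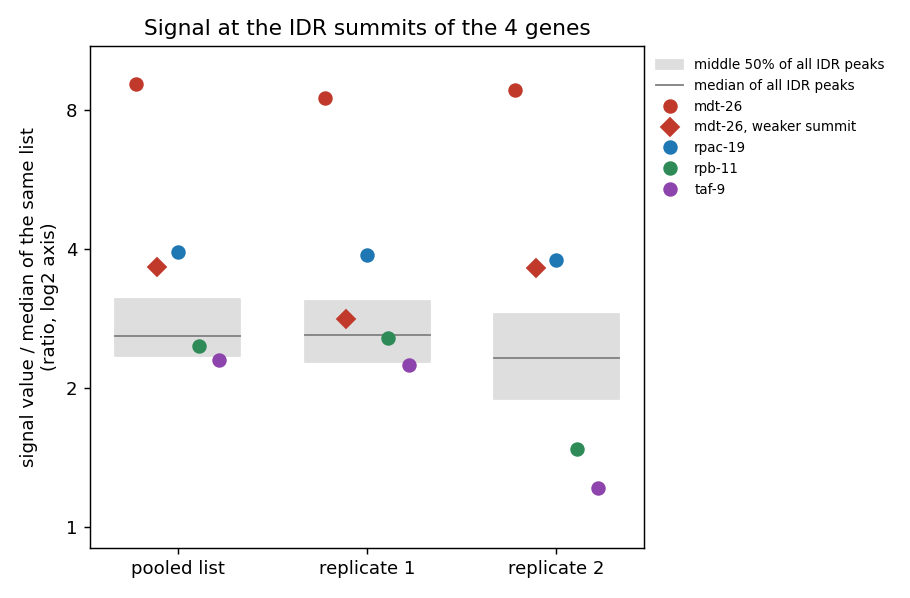
Signal value of each summit divided by the median of all regions in the same list (log2 axis), for the pooled list and both replicates. Grey bands hold the middle 50% of all IDR peaks and the grey line is their median. The strongest mdt-26 summit is between 8.48 and 9.11 in all 3 lists, whereas rpb-11 and taf-9 fall to 1.47 and 1.21 in replicate 2.

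The Mediator gene mdt-26 (WBGene00016115, chrII:5661181-5665243, plus strand) held the strongest region of the pooled ce11 list. In the pooled ce10 list the strongest region lies on chromosome V. The mdt-26 peak spans chrII:5661571-5662028, a width of 458 bp, and its summit at position 5661775 lies 594 bp downstream of the annotated 5′ end and 581 bp past the start codon. This places it in coding exon 2, at base 66 of that 72-base exon, 6 bp before the exon ends. The summit is thus inside the gene body and outside the promoter window, which covers the 500 bp before and the 100 bp after a 5′ end. Of the 575 IDR summits, 64 were classed as coding exon and 174 as promoter.

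The pooled signal value at this summit was 655, which is 9.11 times the pooled median. Replicate 1 gave 449, or 8.48 times its median, at rank 2, and replicate 2 gave 209, or 8.85 times its median, at rank 1. The q-value was the lowest that each list holds, 0.00183 pooled and 0.00139 in replicate 2, a value that 274 pooled and 359 replicate 2 regions share. Both replicates therefore placed this summit among their top 2 regions, and their summits were 8 bp apart. The lead over the second pooled region was small, since that region had a signal value of 638, which is 97.4% of the mdt-26 value.

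A second, weaker summit lies in the same interval at position 5661978, 203 bp further along. It falls 197 bases into intron 2, which runs from 5661782 to 5662167. This is the only interval that occurs with more than 1 summit in the IDR list. The weaker summit had a pooled signal value of 263 at rank 82, a replicate 1 value of 149 at rank 207 and a replicate 2 value of 86.1 at rank 61. The stronger summit exceeded the weaker one 2.49 times in the pooled list, 3.005 times in replicate 1 and 2.43 times in replicate 2, so the order was the same in both replicates. In replicate 2 the summits lie in separate regions of 233 and 210 bp, narrower than the commonest width of 444 bp in that list, while replicate 1 has both in 1 region of 423 bp.

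The annotated 5′ end of mdt-26 was not where the signal lay. A pooled candidate region with its summit 54 bp upstream of the 5′ end had a signal value of 60.2, a q-value of 0.928 and rank 15429, which is below the median of the list. A pair of further upstream candidates, 712 and 914 bp from the 5′ end, had signal values of 60.6 and 118, and the higher of these had a q-value of 0.122. In replicate 1 the matching region 950 bp upstream reached a q-value of 0.0354 at rank 975, and replicate 2 listed no summit there. That stretch lies inside ift-43, a gene named for an intraflagellar transport protein, which is transcribed from the opposite strand with its 5′ end 394 bp from that of mdt-26. Of the 5 pooled candidates at mdt-26, 2 had a q-value under 0.05, and both are the IDR summits.

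**Figure D2:**
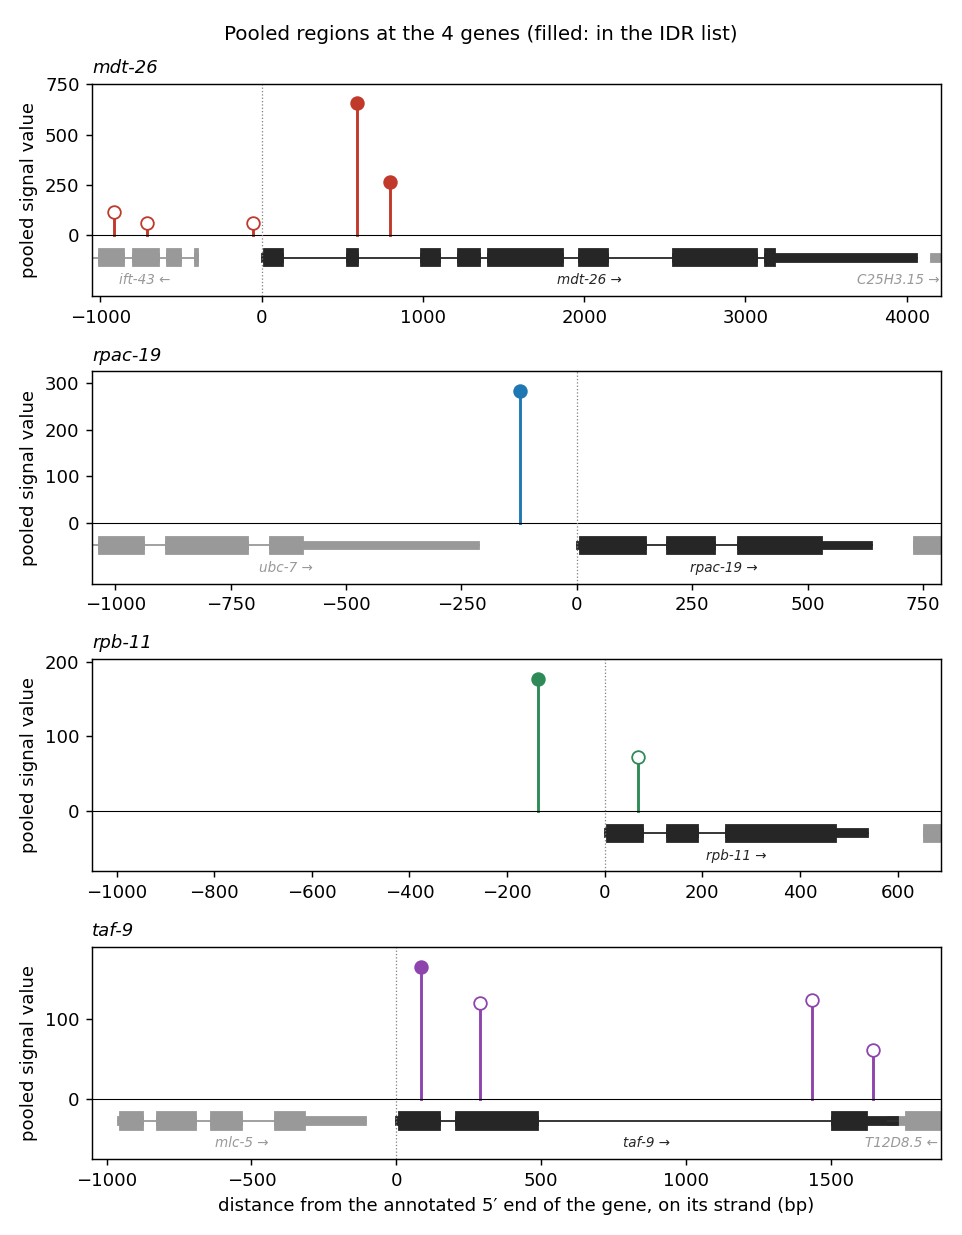
Pooled regions at the 4 genes, with the signal value of each summit (vertical axis) against its distance from the annotated 5′ end on the strand of the gene (bp). Filled points are IDR summits and open points are other candidates; boxes below are exons, thick where coding, in black for the gene and grey for its neighbours. The mdt-26 summits stand at 594 and 797 bp inside the gene, and the rpac-19 and rpb-11 summits at 123 and 136 bp upstream.

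The polymerase subunit gene rpac-19 (WBGene00010230, chrIII:9629246-9629885, minus strand) held the second strongest IDR peak among the 4 genes and had similar ranks in both replicates. Its peak spans chrIII:9629790-9630225, with the summit at 9630008, 123 bp upstream of the 5′ end and in the promoter class. The pooled signal value was 283 at rank 66, the replicate 1 value was 205 at rank 68 and the replicate 2 value was 89.4 at rank 51. These are 3.93, 3.87 and 3.78 times the respective medians, and the replicate summits were 25 bp apart. The gene had no other pooled candidate. The neighbour ubc-7, named as a ubiquitin-conjugating enzyme gene, lies upstream on the same strand and ends 89 bp beyond the summit, whereas its own 5′ end is 1159 bp away. The gene downstream of rpac-19 is tbg-1, which encodes gamma-tubulin, 91 bp past the end of rpac-19 on the same strand.

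The RNA polymerase II subunit gene rpb-11 (WBGene00012187, chrII:14060085-14060624, plus strand) had a promoter peak at nearly the same distance from its 5′ end. The peak spans chrII:14059731-14060166 and its summit at 14059949 lies 136 bp upstream. The pooled signal value was 177 with a q-value of 0.00439 at rank 342. Replicate 1 gave 135 with a q-value of 0.00482 at rank 312, and its summit was 1 bp from the pooled one. Replicate 2 gave 34.8 with a q-value of 0.290 at rank 3152, and its summit lay 131 bp downstream of the pooled one, 5 bp before the 5′ end of the gene. The replicate summits were thus 132 bp apart, where the middle 50% of IDR peaks had 9 to 64 bp. A second pooled candidate, 69 bp inside the gene, had a signal value of 72.0 and a q-value of 0.780. The replicate 2 summit lay between the pooled summits and nearer to this candidate, and which of them its value reflects was not tested. The next gene downstream, W01G7.4, starts 114 bp past the end of rpb-11 on the same strand.

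The TFIID gene taf-9 (WBGene00006391, chrIII:13624276-13626007, plus strand) held the weakest of the 5 summits. Its peak spans chrIII:13624142-13624577, with the summit at 13624360, 84 bp inside the gene and 76 bp past the start codon. The class order places it in the promoter, although the position is also in coding exon 1. The pooled signal value was 165 with a q-value of 0.0117 at rank 471. Replicate 1 gave 118 with a q-value of 0.0129 at rank 506, and replicate 2 gave 28.7 with a q-value of 0.554 at rank 6657. The replicate 2 value is 1.21 times the median of its list, so that this replicate alone does not set the region apart from its background.

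The other 3 pooled candidates at taf-9 were weaker than the IDR peak, and each had a q-value above 0.05. A pooled region 289 bp inside the gene had a signal value of 119 and one at 1436 bp had 123, with q-values of 0.102 and 0.0755 and ranks 1448 and 1305. The third, at 1646 bp, had a signal value of 60.8 at rank 15001. In replicate 2 the strongest region at the gene was not the IDR peak but one at 1372 bp, near the 3′ end, with a signal value of 34.2 and a q-value of 0.312. The gene mlc-5, named as a myosin light chain gene, ends 190 bp upstream of the IDR summit on the same strand. No annotated noncoding RNA gene lies within 1000 bp of any of the 5 summits.

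The replicates thus split the 5 summits. All 5 had a q-value under 0.05 in replicate 1, as did 97.7% of the IDR peaks, 562 of 575. In replicate 2 the 3 summits at mdt-26 and rpac-19 were under 0.05, and rpb-11 and taf-9 were not; the share over the IDR list was 74.6%, 429 of 575. Among the 575 peaks the median rank was 293 in replicate 1, with the middle 50% from 143.5 to 474. In replicate 2 only 573 of them have a region at the summit. Their median rank was 399, with the middle 50% from 150 to 1009. The replicate 2 ranks of rpb-11 and taf-9 are 10.1 and 13.2 times their replicate 1 ranks, and both are weaker than that middle range, while the replicate 2 ranks of the other 3 summits are all stronger than it. A low rank in 1 replicate can occur within the list, since the lowest replicate 2 rank among those 573 peaks was 23716.

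**Figure D3:**
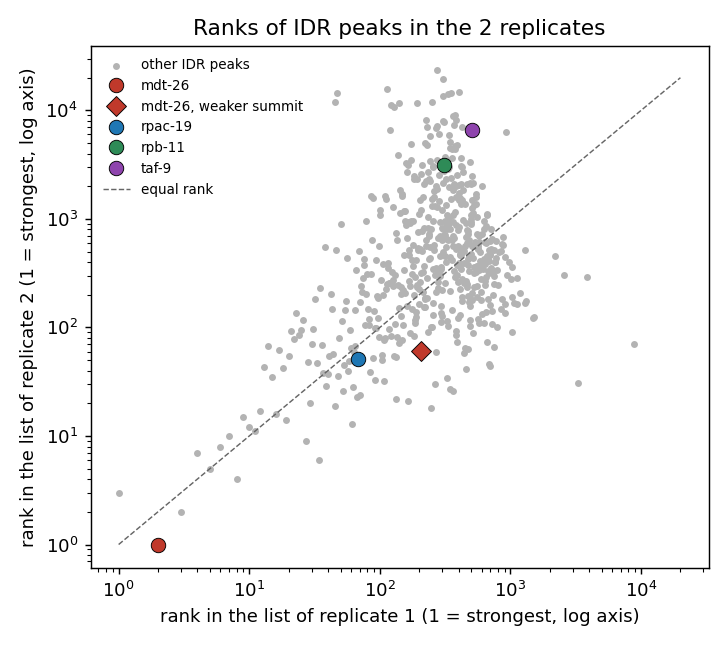
Rank of each IDR peak with a region in both replicates, in replicate 1 (horizontal) and replicate 2 (vertical), on log axes with 1 as the strongest. Grey points are the other IDR peaks and the dashed line marks equal rank. The strongest mdt-26 summit is at ranks 2 and 1 and rpac-19 at 68 and 51, while rpb-11 at 312 and 3152 and taf-9 at 506 and 6657 lie well above the line.

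For each summit, the IDR peaks of the same class with the most similar pair of replicate ranks were listed, as a distance over the log2 ranks in both replicates. The strongest mdt-26 summit had no close match among 63 other coding exon peaks. The nearest was at F58G1.7, beside the small nuclear RNA gene sup-6, at ranks 12 and 17 and a distance of 4.84. The next were dos-3 at 15 and 35 and lelo-2 at 31 and 97. Peaks of other classes came closer. The chromosome V peaks of pooled ranks 2 and 3, in a noncoding exon and an intron, had replicate ranks of 1 and 3, and of 3 and 2. The lack of a close match thus holds within the coding exon class only, for a summit selected as the strongest. The weaker mdt-26 summit was nearest to the intron peaks of T21H3.5, the autophagy gene atg-7 and catp-8, at distances of 0.77, 1.11 and 1.18. For rpac-19 the nearest of 173 other promoter peaks were at cfim-2 and cox-5A, both at a distance of 0.24. The next, at 0.61, had a summit that the gene rule assigns to both chst-1 and C41C4.9. The peaks at cfim-2 and at chst-1 have a small nucleolar RNA gene within 250 bp, which those at rpac-19 and cox-5A lack. For rpb-11 the nearest were B0348.10, tag-151 and vps-4, at 0.24, 0.28 and 0.43, and for taf-9 they were F26G1.1, Y43F8B.2 and vps-4, at 0.51, 0.77 and 1.16.

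The sequence printed for mdt-26 is rich in G and C for a worm gene. The 202 bases between its summits contain 57.4% G+C, and the richest 50 bp window reaches 74%, centred 90 bp past the strongest summit. Intron 2, which is 386 bp long, has 49.5% G+C, against a median of 31.5% over the 37971 introns of at least 200 bp in protein-coding transcripts. Of those introns, 305, or 0.803%, have as much. The 100 bp windows centred on the summits have lower values than that stretch, with 44% at the strongest and 51% at the weaker summit. The richest stretch thus lies between the summits.

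The other 3 windows had 48% G+C at rpac-19, 49% at rpb-11 and 50% at taf-9. Over all IDR windows the mean was 45.6% ± 9.60 (SD, n = 575), over the other pooled windows 41.5% ± 9.25 (SD, n = 17711) and over windows just upstream of protein-coding genes 33.1% ± 8.28 (SD, n = 19985). All 5 member windows are therefore within 1 SD of the IDR mean. In windows of 200 bp the values were lower, 32.5% at rpac-19, 37% at rpb-11 and 40% at taf-9, whereas the strongest mdt-26 summit had 48.5%.

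**Figure D4:**
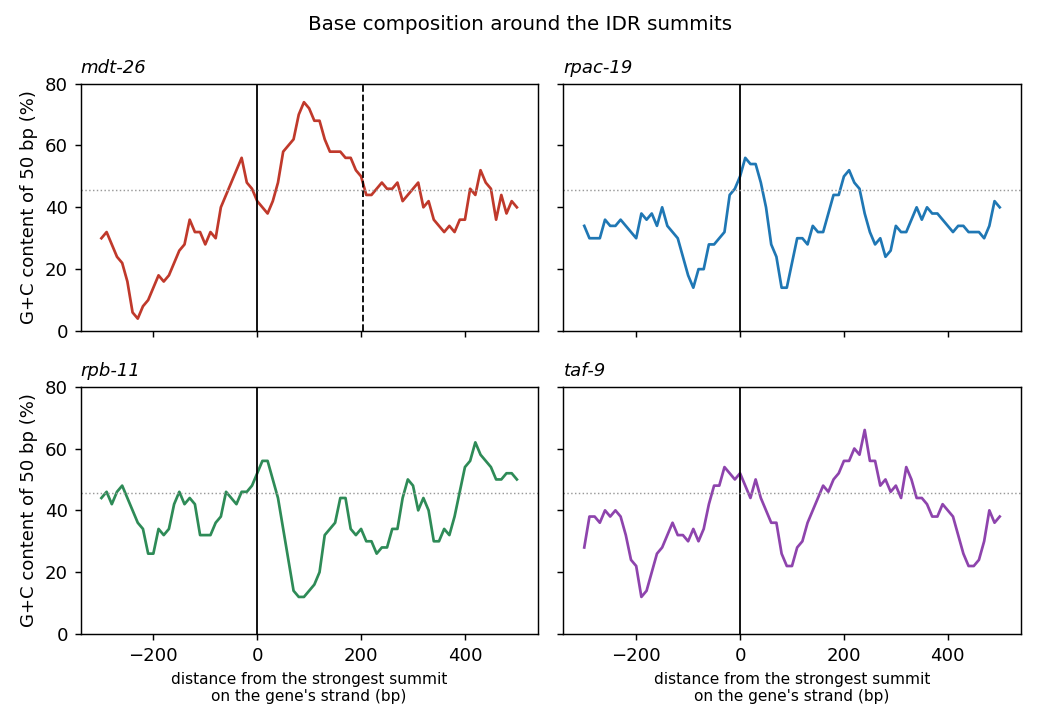
G+C content in 50 bp windows (vertical, percent) against distance from the strongest summit on the strand of each gene (bp). The solid line is the strongest summit, the dashed line the weaker mdt-26 summit and the dotted line the mean of all IDR windows, 45.6%. The mdt-26 curve reaches 74% between its summits, and the highest values over the plotted range elsewhere are 56% at rpac-19, 62% at rpb-11 and 66% at taf-9. The rpb-11 and taf-9 maxima are centred 420 and 240 bp past the summit, outside the peaks.

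A set of 7 short words was searched on both strands. ACGCAG occurs in the mdt-26 interval at chrII:5661930-5661935, which is 155 bp past the strongest summit and 43 bp before the weaker one. In rpac-19 it is 21 bp from the summit, at chrIII:9629982-9629987, and in taf-9 it is 130 bp from the summit, at chrIII:13624490-13624495. It is absent from the rpb-11 region. Within 100 bp windows it is present at rpac-19 and at the weaker mdt-26 summit, and at 11.3% of all IDR windows, 3.65% of the other pooled windows and 2.80% of upstream windows. Over whole regions, 24.2% of IDR regions and 12.7% of the other pooled regions hold it. It was absent from the window at the strongest mdt-26 summit.

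GTTCGANNC, the core of the B box that lies inside tRNA genes and is bound by the RNA polymerase III factor TFIIIC, was added to the search after the mdt-26 sequence had been seen. It lies at chrII:5661934-5661942, 159 bp past the strongest summit and 36 bp before the weaker one, and in none of the other 3 regions. The word is present in 69.7% of 634 annotated tRNA genes, in 7.30% of IDR windows, in 1.48% of other pooled windows and in 0.370% of upstream windows. Of the 42 IDR windows with it, 25 have a tRNA gene within 250 bp and 17 do not. These 17 are 3.47% of the 490 IDR windows that have no tRNA gene within 250 bp. The weaker mdt-26 window is among the 17, since no noncoding gene is annotated near it. Both words occur together in 6 IDR windows. A match to a word describes the letters in the window and not a bound factor.

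The remaining words set the members apart little. GAGAG occurs 3 times in the mdt-26 region, counting overlaps, and once each in those of taf-9 and rpac-19, but not in that of rpb-11; 64.2% of IDR regions hold it against 54.2% of the others. The SP1 box GGGCGG occurs only in the mdt-26 region among the 4, and in 16.7% of IDR regions. The E-box CANNTG is in the 100 bp windows of taf-9, rpb-11 and rpac-19, as in 38.3% of IDR windows and 35.1% of other pooled windows. The TATA box TATAAA is in none of the 5 windows and in 6.26% of IDR windows, and the GATA element AGATAA is likewise in none of the 5 and in 2.96% of IDR windows. Over whole regions AGATAA occurs once each at rpac-19 and rpb-11, and 20.5% of IDR regions and of the other pooled regions hold it, while TATAAA occurs in none of the 4 regions and in 30.8% of IDR regions. CANNTG occurs in the whole regions of taf-9, rpb-11 and rpac-19 and not in that of mdt-26, and 81.9% of IDR regions hold it. Each of the 4 regions matched only itself in a BLAST search of the genome with a largest E-value of 1e-05.

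The 4 genes were then set against 98 genes of the transcription machinery in 5 lists, defined by gene symbol. Of these 98, 7 held an IDR summit (7.14%), and 3 of the 94 that are not members did (3.19%), beside 2.4% of all protein-coding genes. With pooled regions of q-value under 0.05 in place of the IDR list, 11 of 98 (11.2%) met the rule, against 4.14% of all protein-coding genes. Because the members were selected on the same lists, the counts that include them describe the lists and carry no test. The intervals given are exact at 95% (Clopper-Pearson) and reflect only how many genes a list holds.

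Among 26 Mediator genes, 2 held an IDR summit, mdt-26 and mdt-4 (7.69%, interval 0.946 to 25.1), and 22 (84.6%) held any pooled candidate, against 45.8% of all protein-coding genes. That share was also above the background in 3 of the other lists, at 72.7% for RNA polymerase, 78.9% for TFIID and TBP and 75% for other general and elongation factors. Candidate lists include background regions. With a q-value under 0.05 the shares were 15.4% for Mediator and 18.2% for RNA polymerase. They were 5.26% for TFIID and TBP and 10% for other general and elongation factors, against 4.14% of all protein-coding genes. The members are counted in these shares. By this rule a longer gene offers more room for a region, and gene length was not adjusted for. The mdt-4 gene encodes a subunit of the middle module, by its yeast and mammalian namesakes. Its summit at 4942578 on chromosome II is 1371 bp inside the gene, in an intron, with a pooled signal value of 189 at rank 271. Here replicate 2 was the stronger one, with rank 44 against 691 in replicate 1. Both Mediator genes thus had an IDR summit inside the gene body, as did taf-9 and rpc-2. Of all protein-coding genes, 1.29% held an IDR summit inside the gene and 2.4% inside it or up to 1000 bp upstream. Over the 22 genes with a candidate, the median of the strongest pooled signal value was 84.4, beside 78.3 for all protein-coding genes with a candidate. Chosen after their values were seen, mdt-31 and mdt-8 were the next Mediator genes, at signal values of 139.6 and 139 and ranks 839 and 852, outside the IDR list.

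Among 22 RNA polymerase genes, 3 held an IDR summit (13.6%, interval 2.91 to 34.9), which were rpac-19, rpb-11 and rpc-2. The share over all protein-coding genes was 2.4%. Because rpac-19 and rpb-11 were selected by the IDR list, the interval cannot serve as a test against that share. The rpc-2 gene, named after the second largest subunit of RNA polymerase III, had its summit 163 bp inside the gene in a coding exon, at chromosome III position 5557528. Its pooled signal value was 165 with a q-value of 0.00963 at rank 468, and it held a q-value of 0.0375 in replicate 2, at rank 893. The median of the strongest signal value over the 16 genes with a candidate was 84.6. The 3 genes cover subunits of different polymerases, since AC19 is in polymerases I and III, RPB11 in polymerase II and RPC2 in polymerase III. Named after the values were seen, ama-1, the gene of the largest RNA polymerase II subunit, and rpb-3, whose yeast namesake pairs with RPB11, are on the list and held no IDR summit.

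Among 19 TFIID and TBP genes, taf-9 alone held an IDR summit (5.26%, interval 0.133 to 26.03), beside 2.4% of all protein-coding genes. The taf-9 gene was selected by the IDR list, so this count carries no test. The median of the strongest signal value was 90.6 over the 15 TFIID and TBP genes with a candidate. Among 20 other general and elongation factors, cdk-7 alone held an IDR summit (5.00%, interval 0.127 to 24.9). The cdk-7 gene encodes the kinase of TFIIH, which phosphorylates the tail of RNA polymerase II. Its summit lies 37 bp upstream of its 5′ end, with a pooled signal value of 163 at rank 482 and q-values of 0.00807 in replicate 1 and 0.0497 in replicate 2. None of 11 RNA polymerase III and snRNA gene factors held one (0%, interval 0 to 28.5), although 5 of them (45.5%) held a candidate region, close to the 45.8% of all protein-coding genes. With intervals this wide, the IDR shares of the 5 lists cannot be ranked.

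**Figure D5:**
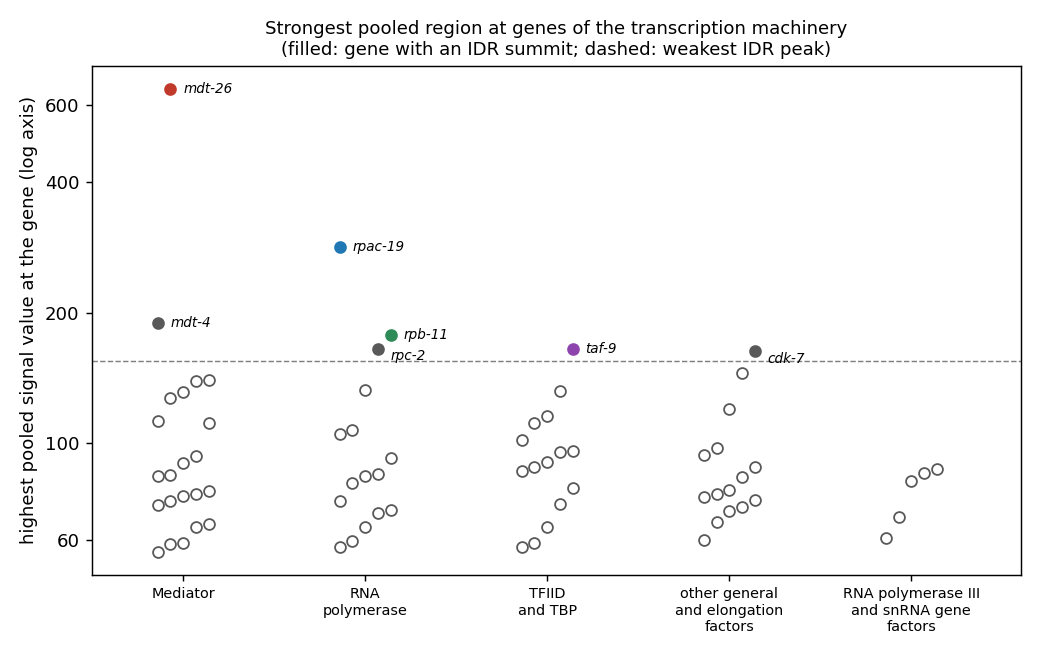
Highest pooled signal value at each gene of 5 lists of the transcription machinery that holds a candidate region (log axis); filled points are genes with an IDR summit and the dashed line is the weakest IDR peak. The mdt-26 value of 655 and the rpac-19 value of 283 stand above the rest, and the other 5 filled points lie between 163 and 189.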

How the data were processed

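Peak lists of 2 biological replicates, of their pool and of the IDR step were used as the authors deposited them, in narrowPeak layout. Each region's signal value is the authors' own, on a scale not defined in the labels, and each −log10 q-value is from the same deposited lists and was converted to q. The aligner, the peak caller, its version and the threshold of the IDR step are each not given in the sources used. A control library is named in the labels and was not analysed here. Read depth is unknown, so no value carries a counting error.

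Regions were assigned to Ensembl release 115 genes of WBcel235 (ce11) by summit, within the gene or up to 1000 bp upstream. Replicate values are from the region that holds the pooled summit, with the nearest summit of its own. A summit had 1 class; promoter took precedence over exon classes, coding over noncoding ones, and exon over intron. Ranks use the signal value. Words were searched on both strands in 100 bp windows and whole regions; upstream windows are the 100 bp before each protein-coding 5′ end. Copies were sought with BLAST+ 2.17.0 (word size 11). Scripts ran in Python 3.11.15 with pandas 2.3.3, numpy 2.4.6, scipy 1.17.1 and matplotlib 3.10.9, and were tested on simulated regions.

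The members, the gene lists, the words and the alternatives were chosen with earlier results of these data known, so no test was run on them. Genes named are the members, genes within 1000 bp of their summits, genes of the lists with an IDR summit and the 3 peaks of the same class most alike in replicate ranks; others are marked where they occur. Alternatives were the upstream limit, the 288 strongest IDR peaks, a q-value threshold of 0.05, each replicate alone, another sequence window and the ce10 lists, from which no coordinate was converted.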

Additional observations from a re-analysis of the deposited data

How the results depend on the processing

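Of 65 alternative values, 36 stayed close to the reported one and 29 moved, and the cause was not tested. For ranks, close meant within the SD of the 2 replicate ranks, so the limit is wider where the replicates disagree. The ce10 signal value was counted as moved without such a limit. By replicate alone, the rank ranged from 1 to 2 for mdt-26, 51 to 68 for rpac-19, 312 to 3152 for rpb-11 and 506 to 6657 for taf-9, the weaker rank of the last pair being that without replicate 1. By q-value rpac-19 is at rank 1, which 274 regions share. From a single replicate, with as many of its strongest regions as the IDR list holds, the number of genes ranged from 1 to 3 for Mediator (mdt-4 was lost without replicate 2), 1 to 3 for RNA polymerase (rpb-11 and rpc-2 were lost without replicate 1) and 0 to 1 for other general factors (cdk-7 was lost without replicate 1). The TFIID count stayed at 1, but without replicate 1 the gene was taf-11.3 in place of taf-9. With regions of q-value under 0.05 the Mediator count was 4 and that of other general factors 2. With no upstream sequence the RNA polymerase count was 1 and that of other general factors 0. Among the 288 strongest IDR peaks the counts were 1 for RNA polymerase, 0 for TFIID and 0 for other general factors. The RNA polymerase III factor count was 0 in every alternative run. The share of all protein-coding genes was 2.02% with 500 bp upstream, 1.29% with none, 1.34% with the 288 strongest peaks, 4.14% by q-value and 2.45% to 2.51% by single replicate. No paired analysis was possible because there was 1 group.

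In the ce10 lists the strongest pooled region lies on chromosome V, with a signal value of 852, and the second on chromosome II, with 827. Rank 1 is thus given for ce11 alone, and which gene the ce10 regions hold was not analysed here. The 2 replicates limit every statement on reproducibility to the comparison of a pair of ranks.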
